A study of Mus musculus with 9 samples.

Results

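The trace amine-associated receptors (TAARs) are a small family of odorant receptors that the main olfactory epithelium uses beside the odorant receptors (ORs). The 10 genes described here, *Taar2*, *Taar3*, *Taar4*, *Taar5*, *Taar6*, *Taar7a*, *Taar7b*, *Taar7d*, *Taar8c* and *Taar9*, were taken by symbol from the 23607 genes of each count table, and this rule uses no measured value. The tables held 15 *Taar* symbols in all, and the other 5 (*Taar1*, *Taar7e*, *Taar7f*, *Taar8a* and *Taar8b*) are given where they share reads with the listed genes. The same tables listed 1248 OR genes under *Olfr* symbols.

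The study asked which receptors the aldehyde heptanal activates in vivo, and the TAARs are here a receptor class that is not known for aldehydes. C57BL/6 mice were kept 1 hr with filter paper carrying distilled water (control), 1% heptanal or 100% heptanal, with 3 mice in each group. Replicate 1 of each group was collected at postnatal day 22, replicate 2 at postnatal day 21 and replicate 3 at postnatal day 18, and by the study's methods the mice of a replication were littermates of the same sex. The olfactory epithelium of each mouse was homogenised, mRNA was pulled down with an antibody to the phosphorylated ribosomal protein S6 (pS6-IP), and the mRNA was sequenced.

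Each olfactory sensory neuron (OSN) expresses mainly 1 receptor gene, and this holds for neurons that choose a TAAR as well as for those that choose an OR. TAARs are G protein-coupled receptors of the aminergic family, most of them respond to volatile amines such as those of urine and decaying tissue, and *Taar1* is the family member that is not used in OSNs. Phosphorylation of S6 follows neuronal activity, so the pull-down enriches mRNA of recently active neurons, but it also takes mRNA of any cell with phosphorylated S6 at rest.

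In the GRCm38.p6 assembly the 15 genes lay between positions 23920406 and 24109534 of chromosome 10, a stretch of 189 kb. Of these, 14 had a single exon and *Taar2* had 2. The 5 *Taar7* genes had coding sequences of 1077 bases with pairwise identities of 91.7% to 95.4%, and 140 positions differed among them. The sequences below show what that likeness means for a read of 50 bases, the read length of the study. At coding positions 177 to 226 the 5 genes did not differ, and the same 50 bases stood at 6 places in the genome. A read from there belongs to no single gene.
*Taar7a* (chr10:23993256-23993305, minus strand): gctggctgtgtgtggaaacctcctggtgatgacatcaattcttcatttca
*Taar7b* (chr10:24000115-24000164, plus strand): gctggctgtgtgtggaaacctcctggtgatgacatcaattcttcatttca
At coding positions 4 to 53 the genes differed at 29 positions, the most of any window, and each sequence stood at 1 place. Capitals mark the positions at which the 5 genes were not all alike. All sequences run 5′ to 3′ on the coding strand and come from the RefSeq assembly GRCm38.p6.
*Taar7a* (chr10:23993429-23993478, minus strand): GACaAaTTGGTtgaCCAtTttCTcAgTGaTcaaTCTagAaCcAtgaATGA
*Taar7b* (chr10:23999942-23999991, plus strand): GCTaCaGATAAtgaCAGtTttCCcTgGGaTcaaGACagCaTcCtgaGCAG
*Taar7d* (chr10:24027225-24027274, plus strand): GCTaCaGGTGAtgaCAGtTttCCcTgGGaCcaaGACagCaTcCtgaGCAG
*Taar7e* (chr10:24037617-24037666, plus strand): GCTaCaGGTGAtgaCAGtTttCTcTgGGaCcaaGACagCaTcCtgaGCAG
*Taar7f* (chr10:24049513-24049562, plus strand): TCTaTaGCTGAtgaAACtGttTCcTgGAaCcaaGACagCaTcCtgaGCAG

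Every 50-base window of each of the 15 gene models was looked up in the genome on both strands, allowing no mismatch. All windows of *Taar1*, *Taar2*, *Taar3*, *Taar4*, *Taar5* and *Taar9*, and 99.9% of those of *Taar6*, stood at 1 place. In the *Taar7* genes the share was lower, with 61.4% for *Taar7a*, 59.6% for *Taar7b* and 70.5% for *Taar7d*. It was lowest in *Taar8c*, with 28.9%, and its relatives *Taar8a* and *Taar8b* had 49.1% and 43.6%. Counts of *Taar7* and *Taar8* genes therefore depended on how shared reads were assigned, and those of the other listed genes hardly did.

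**Figure D1:**
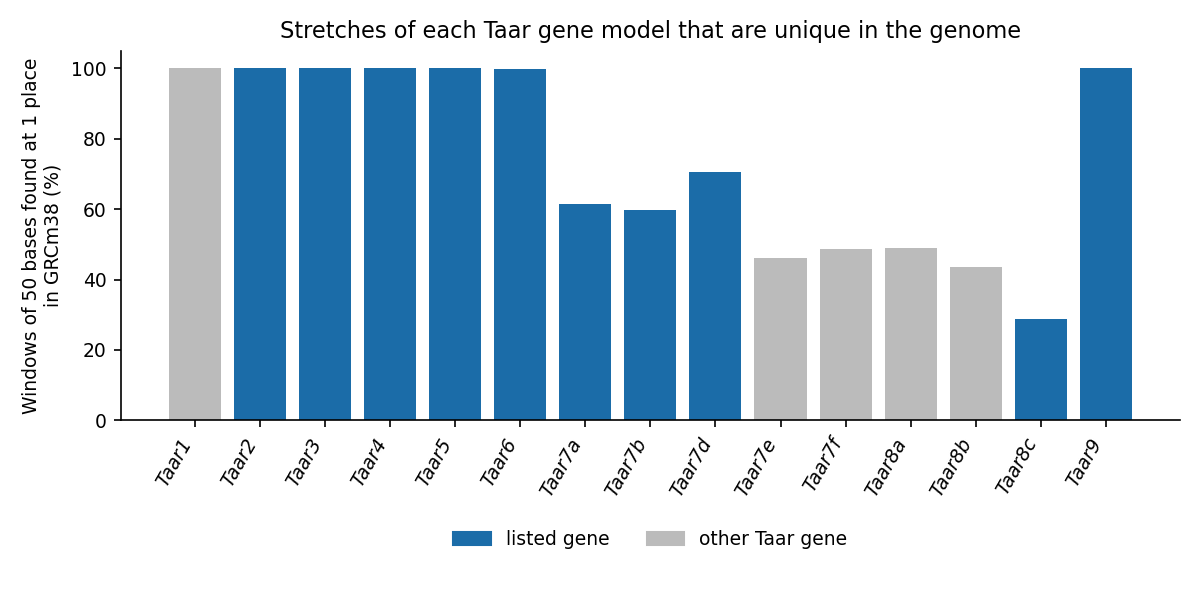
Bars give, for each of the 15 *Taar* genes, the percent of 50-base windows of the gene model that stand at 1 place in GRCm38 (vertical axis, 0 to 100%), with listed genes in blue and the other *Taar* genes in grey. *Taar1* to *Taar6* and *Taar9* reach 99.9% or 100%, while *Taar8c* has 28.9%.

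The library totals ran from 5438494 to 9707592 estimated counts per mouse (median 7305895), and every pair of mice of a group differed by more than sampling noise. ORs made up 0.200% to 0.549% of the counts in the controls, 0.143% to 0.543% at 1% heptanal and 0.532% to 0.866% at 100% heptanal. The summed level of 5 markers of mature OSNs (*Omp*, *Adcy3*, *Cnga2*, *Gnal* and *Rtp1*) was 4213 to 8894 CPM (counts in 1000000 of the library) in the controls, 6387 to 9113 at 1% heptanal and 10842 to 14767 at 100% heptanal. That of 3 markers of sustentacular cells, the supporting cells of the epithelium, was 857 to 1398, 1057 to 1485 and 1702 to 2067 in the same order, so these markers too were higher in the 100% group, and none of the genes of the marker lists was at 0. In such bulk samples fewer cells of a type and less RNA per cell cannot be told apart.

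Counts of the 10 genes were very low. Of the 68913444 estimated counts of the 9 mice together, the listed genes held 174, and the highest count of a listed gene in a mouse was 15. A count was seen in at least 1 mouse for 8 of the 10 genes, against 1012 of the 1248 ORs (81.1%). A count in at least 6 of the 9 mice was seen for 3 of the 10 genes (*Taar5*, *Taar6* and *Taar7a*), against 467 ORs (37.4%). The number of listed genes with a count was 2 to 5 in the controls, 3 to 5 at 1% heptanal and 2 to 4 at 100% heptanal, so the 3 groups overlapped.

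*Taar5*, the receptor for trimethylamine, and *Taar6* held most of the counts that did not depend on shared reads. *Taar5* had 8, 0 and 1 counts in control replicates 1 to 3, 10, 0 and 11 at 1% heptanal, and 3, 5 and 0 at 100% heptanal. Each group thus contained a mouse without a read of *Taar5*, and the ranges of the groups overlapped. *Taar6* had 3, 2 and 3 counts in the control mice, 9, 3 and 5 in the 1% group, and 15, 2 and 0 in the 100% group. For *Taar6* the lowest and the highest count of the study fell in the same group, 100% heptanal, whose range enclosed those of both other groups. In CPM of rounded counts with TMM scaling (mean ± SD, n = 3), *Taar5* was 0.455 ± 0.682, 0.852 ± 0.764 and 0.348 ± 0.351, and *Taar6* was 0.375 ± 0.0914, 0.780 ± 0.474 and 0.665 ± 0.920, in the order control, 1% and 100% heptanal.

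*Taar2*, *Taar4* and *Taar9* were seen in few mice. *Taar2* had 1 count in control replicate 2 and 2 counts in replicate 3 of the 1% group. *Taar4*, a receptor for phenylethylamine, a compound of carnivore urine, had 2 counts in replicate 2 of the 100% group. *Taar9* had 3 counts in control replicate 3. All their other values were 0, and no count of these 3 genes was above the floor of 3 counts, below which a level cannot be told from 0 here. *Taar3*, a receptor for primary amines, and *Taar8c* had 0 counts in all 9 mice, which allows a share of up to 4.35e-06% of all counts. For *Taar3* this 0 was measured with a gene model in which every window stood at 1 place. For *Taar8c*, with its few unique windows, the 0 holds after the assignment of shared reads, which gave *Taar8b* 10.1 estimated counts over the 9 mice from 3 uniquely mapped reads and *Taar8a* 0.

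**Figure D2:**
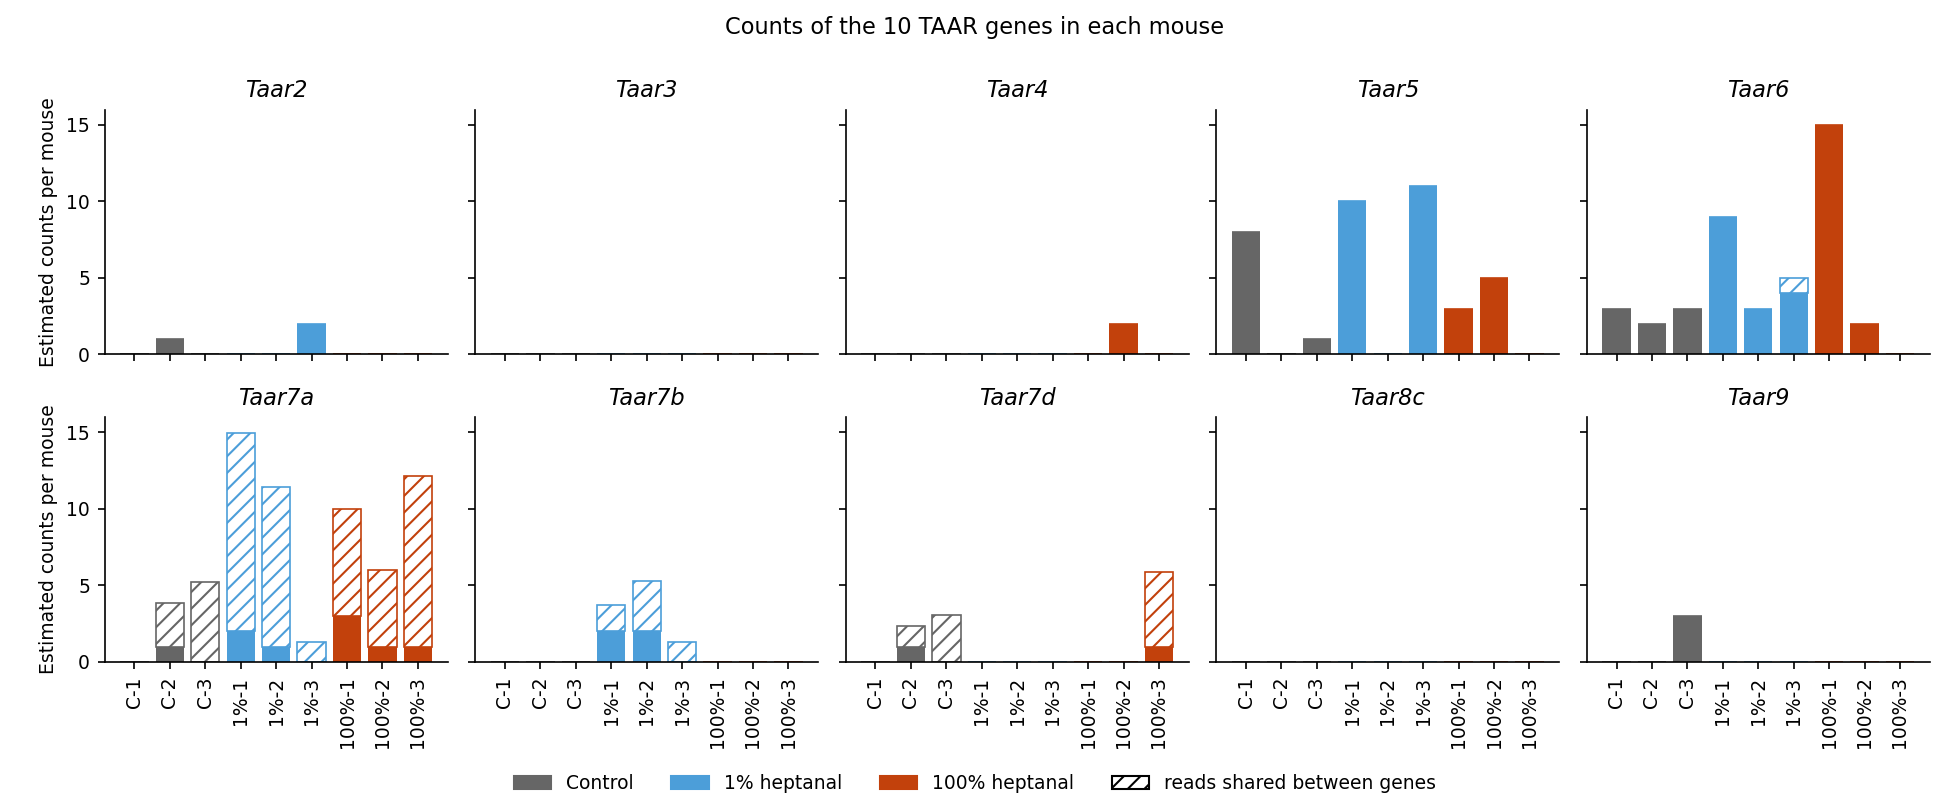
Each panel shows 1 of the 10 listed genes, with the estimated count (vertical axis, 0 to 16 counts) in each of the 9 mice (C, control; replicates 1 to 3), uniquely mapped reads as filled bars and reads shared between genes as hatched bars. *Taar5* and *Taar6* rest almost wholly on uniquely mapped reads, *Taar7a*, *Taar7b* and *Taar7d* mostly on shared ones, and *Taar3* and *Taar8c* are empty.

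The counts of *Taar7a*, one of the *Taar7* receptors, which respond to tertiary amines, were the highest of the listed genes in sum, with 64.9 over the 9 mice, but 86.1% of them were shared reads. *Taar7a* had 0, 3.83 and 5.21 estimated counts in control replicates 1 to 3, 14.9, 11.4 and 1.31 at 1% heptanal, and 10, 6 and 12.2 at 100% heptanal. The counts of uniquely mapped reads were 0, 1 and 0 in the control mice, 2, 1 and 0 in the 1% group, and 3, 1 and 1 in the 100% group. The lowest estimated count of the 100% group, 6, was thus close to the highest of the controls, 5.21. The uniquely mapped reads overlapped between the groups. *Taar7b* had 3.72, 5.28 and 1.28 estimated counts in the 1% group, from 2, 2 and 0 uniquely mapped reads, and 0 in the other 6 mice. *Taar7d* had 2.33 and 3.09 in control replicates 2 and 3 and 5.87 in replicate 3 of the 100% group, with 0 in the other mice. *Taar7b* and *Taar7d* each had counts in 3 mice, and 61.1% and 82.3% of these counts were shared reads.

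The sum over all 5 *Taar7* genes does not depend on how reads were divided among these 5. Some of their windows stood at up to 7 places, so the sum can still depend on reads shared with other places in the genome. This sum was 2, 23 and 31.9 estimated counts in the control mice, 36.0, 31 and 31 in the 1% group, and 16, 9 and 30 in the 100% group. In CPM of the library total this was 2.47 ± 1.89 in the controls, 4.64 ± 1.30 at 1% heptanal and 2.16 ± 1.14 at 100% heptanal (mean ± SD, n = 3), and the ranges overlapped. Uniquely mapped reads of the 5 genes came to 1, 7 and 3, then 8, 6 and 3, then 5, 1 and 6. The unlisted *Taar7e* and *Taar7f* took a large share of these reads. *Taar7e* had 2, 7.66 and 3.92 estimated counts in the control mice, 17.3, 10.8 and 28.4 in the 1% group, and 0, 1.5 and 0 in the 100% group. *Taar7f* had 0, 9.19 and 19.7, then 0, 3.45 and 0, then 6, 1.5 and 11.95.

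**Figure D3:**
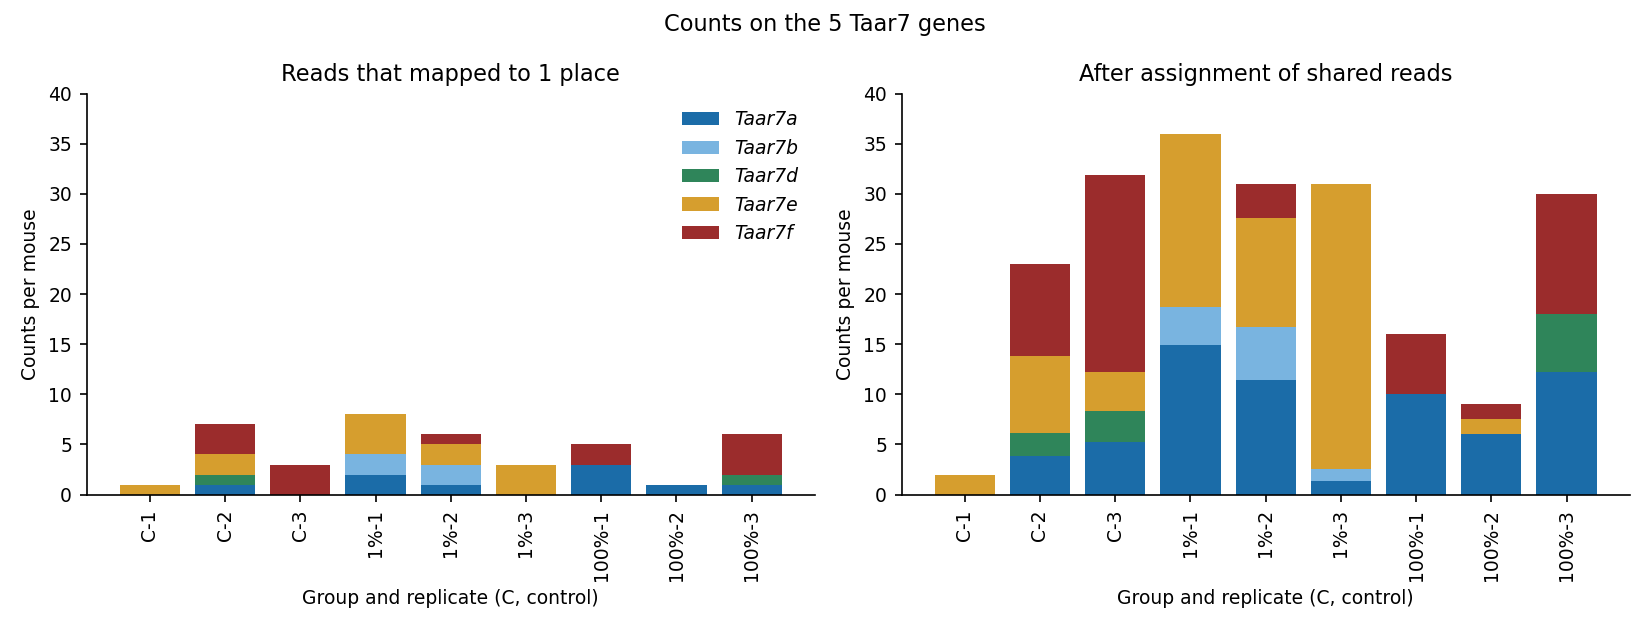
Stacked bars give the counts (vertical axis, 0 to 40) on the 5 *Taar7* genes in each of the 9 mice, from reads that mapped to 1 place (left) and after the authors' assignment of shared reads (right). The uniquely mapped reads reach at most 8 in a mouse, and the estimated counts reach 36.0.

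On a scale of CPM and per kilobase of gene model, the listed genes were ordered by level as *Taar7a* (0.913 ± 0.711, mean ± SD over the 9 mice), *Taar6* (0.580 ± 0.519), *Taar5* (0.540 ± 0.573), *Taar7b* (0.167 ± 0.318) and *Taar7d* (0.141 ± 0.229). *Taar9* (0.0385 ± 0.115), *Taar2* (0.0378 ± 0.0766) and *Taar4* (0.0291 ± 0.0874) followed, and *Taar3* and *Taar8c* were at 0. No 2 neighbours in this order differed by more than the larger of their SDs, and every listed gene was at 0 in at least 1 mouse. Genes farther apart in the order did differ by that measure. *Taar7a* lay above *Taar7b*, *Taar7d* and all genes below them, and *Taar6* lay above *Taar9*, *Taar2*, *Taar4*, *Taar3* and *Taar8c*. The place of *Taar7a* rests on shared reads, however. In uniquely mapped reads over the 9 mice it had 9, against 41 for *Taar6* and 38 for *Taar5*.

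To test whether heptanal changed the mRNA of single TAARs in the pull-down, all genes were fitted in 1 model of the 3 groups with edgeR's quasi-likelihood test, with Benjamini-Hochberg adjustment over all 14930 genes that passed a filter on low counts. Only 1 of the 10 listed genes, *Taar7a*, passed this filter, and with uniquely mapped reads 0 did. The filter asks for about 1.37 CPM in at least 3 mice, and for *Taar7a* these were mice exposed to heptanal, so the choice itself favoured a value above the controls. None of the listed genes passed an adjusted p of 0.05 in any comparison, and 0 had an unadjusted p under 0.05. Among all genes tested the share called was 0% for 1% heptanal against control (0 genes, 119 at an unadjusted p under 0.05), 0.0134% for 100% heptanal against control (2 genes, 623 unadjusted), and 0.0134% for 100% against 1% heptanal (2 genes, 486 unadjusted). DESeq2 called 1, 68 and 25 genes in these comparisons (0.0067%, 0.455% and 0.167%), and edgeR with the litter as a block called 0, 48 and 12 (0%, 0.322% and 0.0804%), both with 0 of the listed TAARs. Of the 448 ORs that passed the filter, edgeR without the block also called 0 in each comparison, so this fit sets no contrast between the classes. Among the ORs, DESeq2 called 1, 18 and 12, and edgeR with the block called 0, 8 and 1. The study, also with edgeR and at the same threshold, reported more ORs enriched over control at both concentrations than these fits called. Its methods state no design for that test, and the reason for the difference was not tested.

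*Taar7a* was 0.399 ± 0.347 CPM with TMM scaling in the controls, 1.41 ± 1.14 at 1% heptanal and 1.12 ± 0.264 at 100% heptanal (mean ± SD, n = 3). The log2 fold change was 1.73 (SE 1.20, 95% confidence interval -0.99 to 4.45, edgeR adjusted p = 1.00) at 1% heptanal. At 100% heptanal it was 1.43 (SE 1.19, interval -1.27 to 4.13, adjusted p = 1.00), and between 100% and 1% heptanal it was -0.30 (interval -2.85 to 2.25). All 3 intervals were wide and included 0, so no change of *Taar7a* was detectable at this depth. Without replicate 1, 2 or 3 of any group in turn, the fold changes ran from 1.19 to 2.31 at 1% heptanal and from 0.89 to 1.91 at 100% heptanal on the log2 scale. With TMM scaling over the OR genes alone the value at 100% heptanal was 0.53, and with scaling by the summed counts of *Omp*, *Adcy3*, *Ano2*, *Cnga2* and *Gnal* it was 0.42, where the median over all genes was -1.14 and -1.11. Without the litter of postnatal day 22, a choice made after seeing the data, it was 0.63 at 1% and 0.86 at 100% heptanal.

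The other 7 listed genes with a count entered the test only without the filter, and the 2 at 0 in all mice could not be tested. In that fit of 19884 genes, 0 of the listed genes were called in any comparison, against 0%, 0.0101% and 0.0101% of all genes, and with the litter as a block as well it was 0 against 0.00503%, 0.382% and 0.126%. The lowest p of a listed gene against control belonged to *Taar7b* at 1% heptanal, the gene with counts in that group alone, with an unadjusted p under 0.05 and an edgeR adjusted p of 1.00. With the litter as a block its unadjusted p was above 0.05. Of the unlisted genes, *Taar7e* passed the filter, through the 3 mice of the 1% group alone. Its 3 mice at 1% heptanal lay above its 3 mice at 100% heptanal with no overlap, but this contrast is drawn from the group that let the gene through the filter and rests on the division of shared reads among the *Taar7* genes. It did not pass the test (edgeR adjusted p = 1.00).

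The pooled counts of the 10 genes were next set against the pooled counts of all ORs of the same mouse, which compares the classes within a library. The listed TAARs summed to 11, 9.15 and 15.3 estimated counts in the control mice, 37.7, 19.7 and 20.6 in the 1% group, and 28, 15 and 18.0 in the 100% group. The ORs of the same mice summed to 12790, 39053 and 26815, then 10223, 23360 and 52695, then 46593, 63271 and 64455. The OR counts thus spanned a wider range between mice, in proportion, than the TAAR counts. As a percent of OR counts, with an exact (Clopper-Pearson) 95% interval that covers counting error only, the controls had 0.0860% (0.0429% to 0.154%), 0.0234% (0.0105% to 0.0437%) and 0.0571% (0.0313% to 0.0922%). Replicates 1 to 3 of the 1% group had 0.368% (0.263% to 0.510%), 0.0844% and 0.0391%, and those of the 100% group had 0.0601%, 0.0237% and 0.0280%. A single mouse, replicate 1 of the 1% group, had an interval above that of every other mouse, and it was also the mouse with the fewest OR counts and the fewest ORs with a count (282).

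The mean ratio of TAAR to OR counts was 0.0555% ± 0.0313 (SD, n = 3) in the control group, 0.164% ± 0.178 in the 1% group and 0.0373% ± 0.0199 in the 100% group, and the ranges of the 3 groups overlapped. The mean at 1% heptanal was 2.95 times that of the controls, and within the litters the ratios were 4.28, 3.60 and 0.685. Without replicate 1 of the 1% group it was 1.11 times. The mean at 100% heptanal was 0.672 times that of the controls, with 0.699, 1.01 and 0.491 within the litters. No test was run on these pooled values. With all ORs and the estimated counts, neither group lay on 1 side of its littermates in all 3 litters, but other ways to form the ratio gave such an order. With uniquely mapped reads the 1% group was above control in all 3 litters (2.67, 2.02 and 1.21 times). The 100% group was below control in all 3 litters relative to class I ORs, a cluster of 145 OR genes on chromosome 7 (0.611, 0.752 and 0.359 times), relative to 5 OSN genes (*Omp*, *Adcy3*, *Ano2*, *Cnga2* and *Gnal*; 0.937, 0.954 and 0.427 times), and with all 15 *Taar* symbols relative to all ORs (0.718, 0.358 and 0.290 times). Relative to these 5 OSN genes the mean at 1% heptanal was 1.72 times that of the controls.

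**Figure D4:**
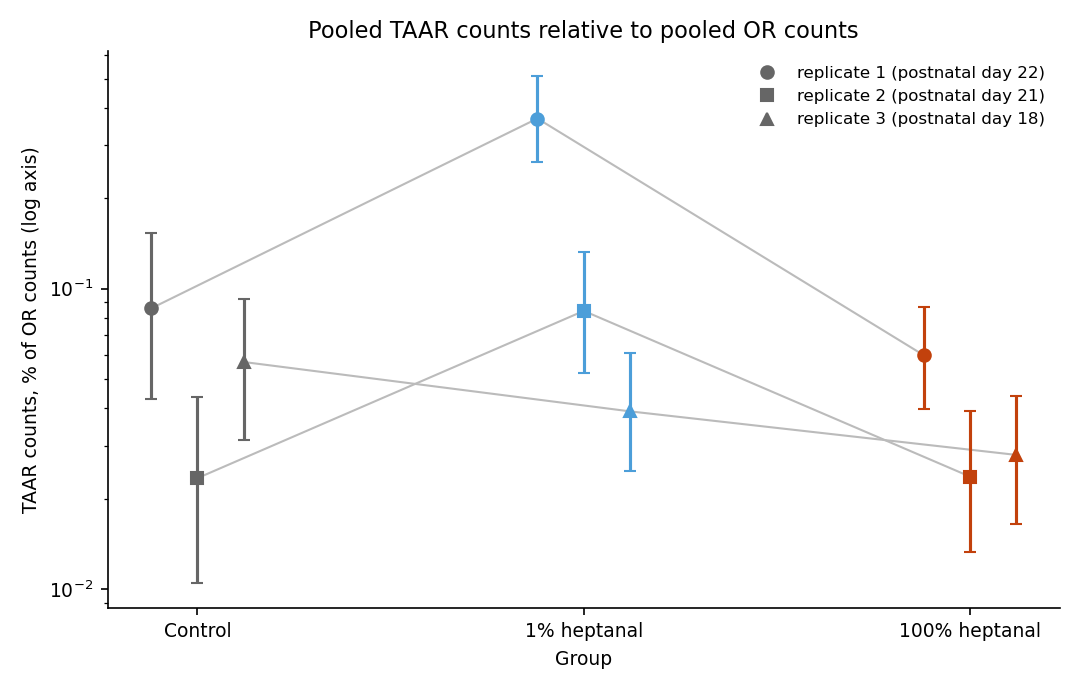
Points give the pooled counts of the 10 listed TAAR genes as a percent of the pooled OR counts (vertical log axis) in each of the 9 mice, with exact 95% intervals of counting error, and grey lines join mice of 1 litter. Replicate 1 of the 1% group stands highest at 0.368%, and the ranges of the groups overlap.

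Relative to the whole library the picture differed. The pooled listed TAARs came to 1.72, 1.29 and 1.85 CPM in the control mice, 5.25, 3.62 and 2.12 in the 1% group, and 3.20, 2.05 and 2.06 in the 100% group. On this scale all 6 heptanal mice lay above all controls, and the share of all genes with such an order is not given here. The mean OR share and the mature OSN markers were also higher in the 100% group, and their part in the difference was not tested. Over all 15 *Taar* symbols the same quantity was 2.03, 4.36 and 5.20 in the control mice, 7.81, 6.25 and 5.05 in the 1% group, and 3.88, 2.46 and 3.43 in the 100% group, so that the groups overlapped again. Uniquely mapped reads of the listed genes also overlapped between the groups. They came to 11, 5 and 7 in the control mice, 23, 6 and 17 in the 1% group, and 21, 10 and 2 in the 100% group. The separation of the listed genes from the controls thus depended on shared reads and on which *Taar7* and *Taar8* genes were counted. The 5 unlisted symbols held the rest of the 308 counts on the family.

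Other genes of the TAAR and OR pathway were read from lists of the signalling and amine-handling genes. TAAR and OR neurons share the transduction cascade of Golf (*Gnal*), adenylyl cyclase 3 (*Adcy3*) and the cyclic nucleotide-gated channel (*Cnga2*, *Cnga4* and *Cngb1*). The list of these signalling genes also held other genes of OSNs, such as *Omp*, *Rtp1* and *Stoml3*. Of its 17 genes tested, 0 passed the test in either direction at 1% and at 100% heptanal. The median log2 fold change at 100% heptanal was 0.63, against -0.03 over all genes tested. With the litter as a block, 3 of the 17 rose at 100% heptanal, where 0.322% of all genes were called: *Omp*, the olfactory marker protein (1.11, edgeR adjusted p = 0.0311), *Gng13*, a G protein gamma subunit (1.41, adjusted p = 0.0230), and *Stoml3*, a stomatin-like protein of OSN cilia (1.22, adjusted p = 0.0231). These values depended on the scaling: without the block, those of *Gng13* and *Stoml3* were 1.58 and 1.16 with TMM over all genes, and 0.55 and 0.19 with scaling by the 5 OSN genes, under which 0 genes were called in the whole table.

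Genes that make or break down amines, the ligands of TAARs, showed no such shift. Of 15 tested, 0 passed the test in either direction at 1% or 100% heptanal, also with the litter as a block. The median log2 fold change at 100% heptanal was 0.02. The members with the lowest p at 100% heptanal were spermine oxidase (*Smox*, log2 fold change -0.61, SE 0.21), ornithine decarboxylase (*Odc1*, -0.41, SE 0.19), spermidine synthase (*Srm*, -0.58, SE 0.38) and *Aoc2*, a copper amine oxidase (0.61, SE 0.85). *Smox* was 81.3 ± 8.95, 68.2 ± 12.5 and 53.1 ± 8.10 CPM and *Odc1* was 286 ± 25.5, 289 ± 59.7 and 215 ± 18.1, in the order control, 1% and 100% heptanal. Their edgeR adjusted p at 100% heptanal was 1.00 without the block, and 0.184 and 0.309 with it.

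The pull-down did record a change of some genes that neuronal activity induces. Of 10 such genes, *Fosb*, a transcription factor of the immediate early response, rose at 100% heptanal, from 2.68 ± 1.08 CPM in the controls to 83.9 ± 14.9, a log2 fold change of 4.97 (SE 0.36, edgeR adjusted p = 0.00398). At 1% heptanal it was 7.32 ± 1.34 and did not pass the test. With the litter as a block, *Fosb*, *Egr1* (2.98, edgeR adjusted p = 0.00136), *Fos* (2.72, adjusted p = 0.00680) and *Nr4a1* (2.18, adjusted p = 0.00695) rose, 4 of the 10, against the same 0.322% of all genes. Scaling by the 5 OSN genes or by TMM over the OR genes ended the call of *Fosb*, with log2 fold changes of 3.92 (edgeR adjusted p = 0.0703) and 3.78 (adjusted p = 0.194). The other genes of the list were called in neither of these 2 edgeR fits. Their log2 fold changes at 100% heptanal ran from -0.02 to 3.26 without the block. The median over the 10 genes was 2.42 in the fit without the block.

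**Figure D5:**
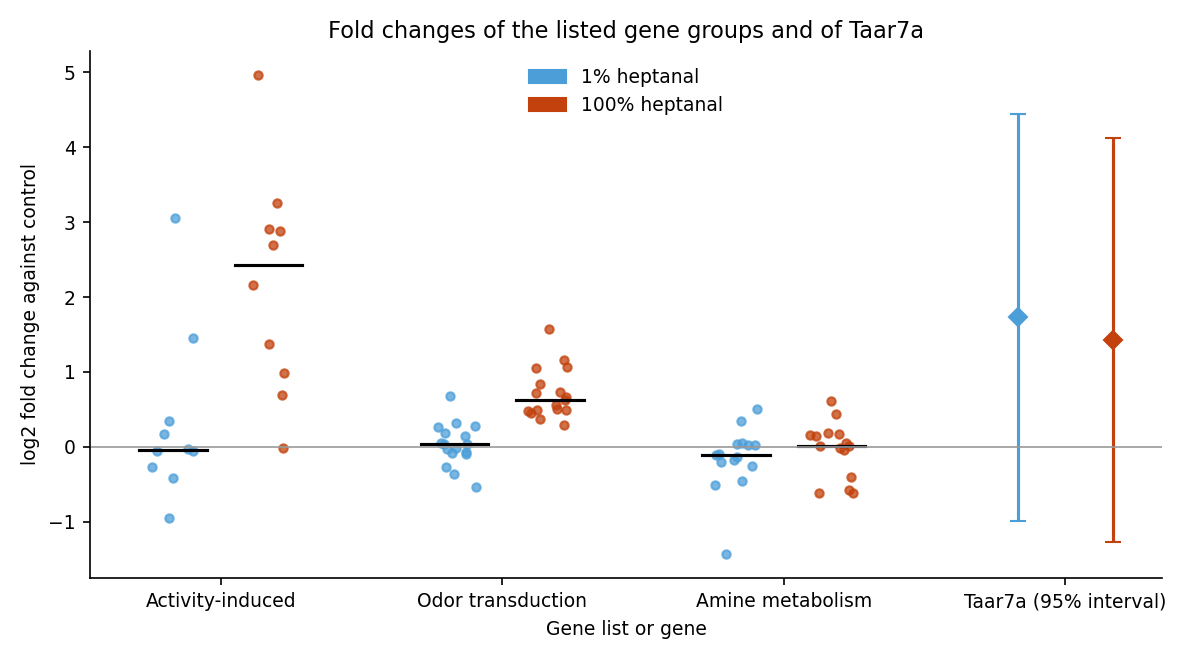
Points give log2 fold changes against control (vertical axis) of the genes of 3 lists at 1% (blue) and 100% heptanal (red), black lines are the medians, and the diamonds with bars are *Taar7a* with its 95% confidence interval. The activity-induced genes stand highest at 100% heptanal, with a median of 2.42, the genes of amine metabolism lie around 0, and both intervals of *Taar7a* include 0.

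Markers of the dorsal and ventral parts of the epithelium were also read, because most TAAR neurons lie dorsally. Of 3 such genes, 0 passed the test at either concentration. *Nqo1*, a dorsal marker, was 101 ± 15.7, 80.7 ± 31.1 and 219 ± 31.8 CPM in the order control, 1% and 100% heptanal (log2 fold change 1.12 at 100%, SE 0.29, edgeR adjusted p = 0.733), and 0.0697 was its adjusted p with the litter as a block. *Acsm4*, another gene with zonal expression, was 357 ± 97.3, 386 ± 177 and 354 ± 41.5 (log2 fold change -0.01 at 100%, SE 0.33). It thus did not share the higher mean of *Nqo1* at 100% heptanal. For *Ncam2*, the remaining gene of the list, the log2 fold change at 100% heptanal was 0.17, with an SE (1.23) too wide to show a direction. Of 4 tested markers of necklace neurons, a class of olfactory neurons outside both receptor families, 0 passed the test, with a median of -0.44 at 100% heptanal.

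The genes whose profile was closest to that of the pooled TAARs were ranked by the root mean square distance of log2 CPM over the 9 mice, each centred on its mean. The closest of 14928 genes were *Sfrp5* (0.225), *Gstm7* (0.233), *Nkx6-2* (0.234), *Rltpr* (0.250) and *Cml3* (0.266), against a median distance of 0.690 and a spread (SD) of the TAAR profile itself of 0.58. The closest of 448 ORs, *Olfr531* (0.556), *Olfr961* (0.557), *Olfr288* (0.595), *Olfr1395* (0.629) and *Olfr541* (0.634), lay farther off, and the median over ORs was 1.86. The SD uses a smaller divisor than the distance, so a distance just under 0.58 does not mark likeness. All profiles come from the same 9 libraries, and the distances are given as a description.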

How the data were processed

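The data were pS6-IP RNAseq of the olfactory epithelium of 9 mice. The authors aligned 50-base reads to mm10 with Bowtie and counted them on genes with BEDTools, with extended models for OR genes. The deposited tables have no header and hold counts of uniquely mapped reads and, in the last column, estimated counts in which the authors also assigned shared reads by a rescue scheme. For tests they were rounded. TAAR models were not stated to be extended, so the TAAR to OR ratio depends on the models. The cDNA was amplified by PCR with no molecular identifiers, so intervals and floors cover counting error only. The floor of 3 counts was 3.09e-05% to 5.52e-05% of a library.

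The tests were edgeR's quasi-likelihood tests (version 4.0.16, R 4.3.3) after filterByExpr and TMM scaling, with 3 groups, no block and a threshold of 0.05, and with DESeq2 1.42.0 as an alternative. CPM of single genes were scaled by TMM on rounded counts, and sums and levels per kilobase by the library total. The confidence intervals of fold changes come from the SE and the test's degrees of freedom. The litters pair the mice, by the study's methods and the postnatal days of the labels. Deviations from group means correlated at 0.155 to 0.730 in the 9 pairs of the same litter (mean 0.54), against a mean of -0.25 in the 18 other pairs. The centring on group means ties these means to each other, so they are not separate evidence. Control replicate 2 and replicate 3 of the 1% group, of different litters, correlated at 0.449. P-values measure the spread between mice. The scripts were tested on simulated data. In all, 15 other settings were planned and 2 were added after seeing the data. Sequences were read from the RefSeq genome.

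The genes named are the 10 members, the other *Taar* symbols, at most 4 genes of each list by lowest p at 100% heptanal, and the closest profiles. The members and lists were chosen with earlier results of these data known.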

Additional observations from a re-analysis of the deposited data

How the results depend on the processing

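Under all 17 alternatives, 0 of the listed TAARs were called in each of the 3 comparisons. This says little about stability, since with uniquely mapped reads 0 listed genes passed the filter, DESeq2 gave *Taar7a* no adjusted p at 100% heptanal against control, and *Taar7a* passed the filter through heptanal mice, which favours its positive sign in the 16 alternatives in which it was tested. With the litter as a replicate block, the fold changes of *Taar7a* on the log2 scale were 1.60 at 1% and 1.44 at 100% heptanal, and the count of listed genes called was again 0, whereas genes called over the whole table rose from 2 to 48 at 100% heptanal against control and from 2 to 12 at 100% against 1% heptanal. The block changed no call of a TAAR. The pooled ratio moved by more than the spread between replicates in 4 cases: relative to class I ORs, it was 0.647% in the controls, 2.19% at 1% and 0.348% at 100% heptanal, since the denominator is smaller, and with all 15 *Taar* symbols it was 0.114% in the controls. Leaving out 1 mouse at a time gave 0.0402% to 0.0715% in the controls, 0.0617% to 0.226% at 1% heptanal and 0.0259% to 0.0440% at 100% heptanal. The ratio to control then ran from 1.11 to 4.08 at 1% and from 0.466 to 0.926 at 100% heptanal, and without the litter of postnatal day 22, a choice made after seeing the data, it was 1.53 and 0.642. The values of these genes are limited by at most 15 counts in a mouse, by 3 mice a group and, for the *Taar7* and *Taar8* genes, by shared reads, and these limits were not ranked. The call of *Fosb* was lost in 2 alternatives, both scalings by OSN or OR genes, and held in the other 15.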
